A study of Rattus norvegicus with 12 samples.

Results

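The genes described here are 10 enzymes of the antioxidant defence: Nqo1, Gclc, Gclm, Txnrd1, Srxn1, Hmox1, Gpx1, Sod1, Sod2 and Cat. They were chosen by name, and every probe set of the array whose single annotated symbol is one of them was taken. That gave 14 probe sets of 31042, for 10 genes of 14217 named on the array. Of the 14, 13 passed the filter on low signal and were tested; the exception was the dimmest of the 3 Srxn1 probe sets.

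NRF2, encoded by Nfe2l2, is a transcription factor that KEAP1 keeps at a low level by directing its degradation. Oxidants and electrophiles modify KEAP1, NRF2 then accumulates, pairs with small MAF proteins and binds antioxidant response elements near genes for quinone reduction, glutathione synthesis, the thioredoxin system and heme breakdown. Nqo1, Gclc, Gclm, Txnrd1, Srxn1 and Hmox1 are textbook targets of this kind, whereas Gpx1, Sod1, Sod2 and Cat remove superoxide and peroxides directly and have other regulators as well. In the retina, oxidative stress is studied as a component of retinal ganglion cell loss in glaucoma.

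The study asked how gene expression in retinal ganglion cells (RGCs), the projection neurons of the retina, responds to 3 vasoactive peptides of the endothelin family, ET-1, ET-2 and ET-3. Primary RGCs of Sprague-Dawley rat pups aged 4 to 6 days were panned on a Thy-1.1 antibody and kept 7 days in a serum-free culture that held forskolin at 5 ng/mL and, as neurotrophic factors, CNTF at 10 ng/mL and BDNF at 50 ng/mL. After a night without neurotrophic factors, the ET-1, ET-2 and ET-3 groups received 100 nM of their peptide for 24 h, and the last group received none; the labels call it untreated in one field and vehicle-treated in another. Each of the 4 groups had 3 Affymetrix Rat Genome 230 2.0 arrays, labelled as biological replicates 1 to 3.

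All cells, untreated ones included, had therefore been through neurotrophic factor withdrawal. What a replicate number stands for is not given, so the p-values measure the spread between these arrays alone.

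Each value is a MAS5 signal, the linear intensity of a probe set after the Affymetrix algorithm has summarised its probes. Array medians ran from 136 to 181. The lower quartile of signal lay between 28.9 and 60.5. Arrays differed more by replicate number than by treatment, so each comparison was fitted with limma on log2 signal with the replicate number as a block.

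RGC markers were high on all arrays. The summed signal of the 11 matched of 12 listed was 86744 to 124532 in ET-1 cultures and 90294 to 127057 in ET-2 cultures. It was 86218 to 134577 in ET-3 cultures and 84951 to 121332 in untreated cultures. None of the 11 passed the test with any endothelin. Over all tested probe sets 1.51%, 1.28% and 2.13% rose with ET-1, ET-2 and ET-3, and 0.219%, 0.322% and 0.509% fell. A list of 11 would thus hold few calls or none, and the same shares stand beside the lists that follow. Of 10 astrocyte and Müller glia markers, 5 could be tested. Vim, Gja1 and Clu rose with ET-1 and ET-3, and Vim and Gja1 rose with ET-2. The other tested genes, Slc1a3 and Glul, did not pass with any peptide. Of the 5 tested, 4, 3 and 5 had a log2 change above 0 with ET-1, ET-2 and ET-3. Median signals over the arrays were 10525 for Vim, 8119 for Clu and 2241 for Gja1, the highest of the list. The summed glial signal was 23403 to 30786 with ET-1, 20651 to 32064 with ET-2 and 23804 to 31771 with ET-3, against 16331 to 22599 in untreated cultures. Gfap did not exceed 240.4, Aqp4 170.4 and Rlbp1 80.7 on any array. The glial sum was higher in all 9 pairs of an endothelin array and the untreated array of its number, by 1.26- to 1.70-fold. The summed fibroblast and pericyte signal differed most by replicate number, at 46934 to 55688 in replicate 1, 14759 to 18916 in replicate 2 and 12560 to 16060 in replicate 3. It was also higher with endothelin in 8 of 9 pairs, ET-2 in replicate 2 being the exception, at 0.953- to 1.28-fold over the 9. Of its 8 tested genes, Acta2 and Tagln, which encode contractile proteins, rose with each peptide, Pdgfrb rose with ET-3, and Col3a1 fell with ET-2. A log2 change above 0 was seen in 6, 3 and 5 of the 8 with ET-1, ET-2 and ET-3. The median over the 8 with ET-2 was -0.06. In such bulk samples, fewer cells of a type and less RNA per cell cannot be told apart.

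Because antioxidant response elements lie upstream of many NRF2 targets, the 250 bases before each gene start were read from the RefSeq promoter table (GRCr8 build), which held windows for 9 of the 10 genes. The motif searched was the core TGACNNNGC, or GCNNNGTCA where it lies on the opposite strand. The windows of 3 genes held it, against 10.1% of all 33469 windows of that length. The sequences of the 3 genes that changed are given first, with the motif, where present, in capitals. The Nqo1 window is chr19:52220268-52220517 on the minus strand, the Gpx1 window chr8:117905212-117905461 on the plus strand and the Sod2 window chr1:50050169-50050418 on the minus strand.
Nqo1: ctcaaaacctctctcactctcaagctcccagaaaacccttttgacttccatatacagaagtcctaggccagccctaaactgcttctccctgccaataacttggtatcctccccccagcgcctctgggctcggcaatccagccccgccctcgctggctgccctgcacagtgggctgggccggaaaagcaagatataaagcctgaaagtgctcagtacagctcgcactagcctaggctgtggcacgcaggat
Gpx1: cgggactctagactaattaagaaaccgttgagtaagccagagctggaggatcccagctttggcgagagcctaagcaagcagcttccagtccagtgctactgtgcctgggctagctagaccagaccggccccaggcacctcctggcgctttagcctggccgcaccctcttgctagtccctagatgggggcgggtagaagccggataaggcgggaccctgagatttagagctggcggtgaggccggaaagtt
Sod2: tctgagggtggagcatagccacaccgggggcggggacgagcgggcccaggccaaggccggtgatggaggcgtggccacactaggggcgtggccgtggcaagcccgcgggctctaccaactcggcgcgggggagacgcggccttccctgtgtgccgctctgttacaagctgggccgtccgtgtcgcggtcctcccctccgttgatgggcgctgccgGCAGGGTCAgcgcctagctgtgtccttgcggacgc
The Sod2 match begins at position -35 from the gene start, and it overlaps no other match. The other 2 matches are shown with 10 bases on either side, since both belong to classical NRF2 targets. The Gclm match begins at -172 in the window chr2:213031885-213032134 on the plus strand, and the Txnrd1 match at -78 in the second of its windows, chr7:22755905-22756154, on the minus strand.
Gclm: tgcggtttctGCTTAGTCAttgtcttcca
Txnrd1: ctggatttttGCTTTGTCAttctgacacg
All 3 matches read on the strand opposite to the gene. A match describes the letters of the window only, and the windows of Nqo1, Gclc, Srxn1, Gpx1, Sod1 and Cat held none. Bases farther upstream than 250 were not searched, so a window without a match does not show that a gene lacks the element.

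Among the 10 genes, represented by their brightest probe sets, Nqo1 and Gpx1 rose with ET-1, Nqo1 rose with ET-2, and Nqo1 and Gpx1 rose with ET-3. None fell, against 0.219%, 0.322% and 0.509% of the tested probe sets with ET-1, ET-2 and ET-3. Thus 2, 1 and 2 of 10 genes passed, where 1.51%, 1.28% and 2.13% of the 15521 tested probe sets passed in the higher direction with ET-1, ET-2 and ET-3 (limma with the replicate block, Benjamini-Hochberg adjusted p under 0.05). With the mean of the 3 endothelins against untreated, 3 of 10 genes rose, Sod2 being the addition, and none fell, where 3.54% of probe sets rose and 1.35% fell. The 3 comparisons share the untreated arrays. The log2 change was above 0 in 8 of 10 genes with each endothelin, and its median over the 10 genes was 0.18 with ET-1, 0.11 with ET-2 and 0.20 with ET-3. Over all tested probe sets the median was -0.03, -0.02 and -0.03, and 42.4% to 43.9% lay above 0. When each array was centred on its median, the number of genes above 0 became 7, 6 and 7, and the median with ET-2 became 0.01. Without the replicate block none of the 15521 probe sets passed in any comparison. Only 237, 223 and 297 then had an unadjusted p under 0.05 with ET-1, ET-2 and ET-3 (limma). Each count is below a share of 0.05, which unadjusted p-values reach when nothing differs. The lowest adjusted p among the 10 genes was 0.9998 in that fit.

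**Figure D1:**
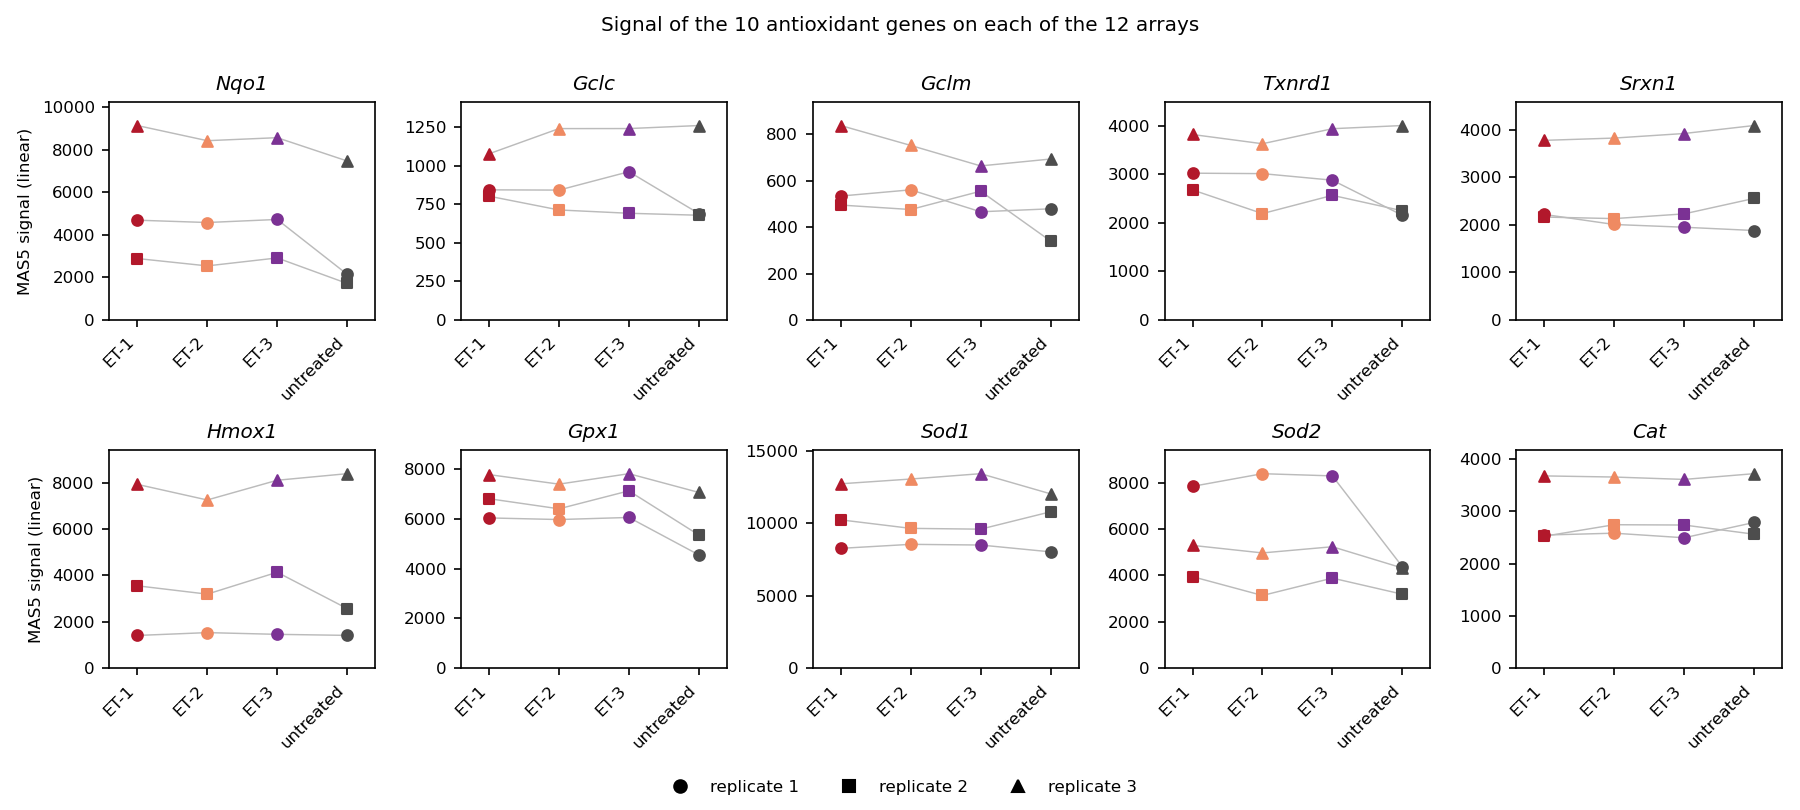
MAS5 signal (linear, y axis) of the representing probe set of each of the 10 genes on the 12 arrays, by group (x axis), with a marker shape for each replicate number and a grey line joining arrays of one number. Nqo1 lies higher in all 9 endothelin arrays than in the untreated array of the same number, and replicate 3 is the highest for every gene shown but Sod2.

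Nqo1 encodes NAD(P)H quinone dehydrogenase, which reduces quinones without releasing semiquinone radicals and is the usual reporter of NRF2 activity. Its signal in replicates 1, 2 and 3 was 4690.1, 2888 and 9140.0 in ET-1 cultures. It was 4581, 2541 and 8428 in ET-2 cultures and 4724, 2915 and 8569 in ET-3 cultures. The untreated cultures had 2149, 1718 and 7474. Every endothelin array exceeded the untreated array of its own replicate number, but the groups overlapped when replicate numbers were ignored, because untreated replicate 3 lay above all endothelin arrays of replicates 1 and 2. The log2 change was 0.72 ± 0.14 with ET-1 (SE, n = 3 pairs of arrays, adjusted p = 0.0181 by limma), 0.61 with ET-2 (0.0452) and 0.70 with ET-3 (0.0181). For the mean of the 3 endothelins the log2 change was 0.68 ± 0.11, which is 1.60-fold (adjusted p = 0.00435 by limma). The fit counts the 3 endothelin arrays of a replicate number as separate, although they share 1 untreated array. This SE and p-value, like those of the other means given below, thus do not measure the spread between replicate numbers alone.

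The Nqo1 difference was not of one size. In replicate 1 the 3 endothelin arrays were 2.13- to 2.20-fold above untreated, in replicate 2 they were 1.48- to 1.70-fold above it, and in replicate 3 they were 1.13- to 1.22-fold above it. In a test added after the values were seen, in which the 3 endothelin arrays of a number gave the spread, the difference depended on the replicate number (limma F test, adjusted p = 0.00182). Each number holds 1 untreated array, so such a dependence and a deviation of that array cannot be told apart. Of the 13 tested probe sets Nqo1 and Sod2 (adjusted p = 0.0248) passed this test, as 2.15% of all tested probe sets did. The summed signal of the glial list, to which Vim, Clu and Gja1 gave most, was higher in the same 9 pairs as Nqo1. Gja1 and Clu did not move together over replicates 1 to 3. The geometric mean signal was 8720, 1096 and 2049 for Gja1 and 5058, 8061 and 13850 for Clu. Gfap, Aqp4, Rlbp1, S100b and Aldh1l1 lay below the filter, so the sum was not shown to follow glial cells. The part of this sum in the Nqo1 values was not tested. Nqo1 was higher in all 9 pairs, as were 5.59% of all tested probe sets. The ET-2 call did not survive the loss of most single arrays; without untreated replicate 1 the log2 change was 0.39 (adjusted p = 0.0829). The call on the mean of the 3 endothelins withstood leaving out each of the 12 arrays, and leaving out replicate 1 (0.46, adjusted p = 0.0332), but not replicate 2 (0.67, adjusted p = 0.0866).

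Glutamate-cysteine ligase, the rate-limiting enzyme of glutathione synthesis, has a catalytic subunit, Gclc, and a modifier subunit, Gclm, and neither gene passed. Gclm had signals of 534, 495 and 837 with ET-1 in replicates 1 to 3. With ET-2 they were 560.4, 476 and 752, and with ET-3 they were 466, 555 and 663, against 479, 339.9 and 693 in untreated cultures. Of the 9 pairs, 7 were higher with endothelin, and replicate 2 showed the largest differences, of 1.40- to 1.63-fold. The log2 change was 0.32 ± 0.13 with ET-1 (adjusted p = 0.258), 0.28 with ET-2 (0.316) and 0.20 with ET-3 (0.444).

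The brighter Gclc probe set read 843, 802 and 1076 with ET-1, 841, 712 and 1239 with ET-2 and 960.1, 691 and 1239.6 with ET-3, against 689, 678 and 1259 in untreated cultures. Replicate 1 was higher with all 3 peptides, while replicate 3 was lower with all 3, and the log2 changes of 0.10, 0.11 and 0.16 had adjusted p values of 0.699, 0.657 and 0.462. The dimmer probe set gave 0.09 with ET-1, 0.25 with ET-2 and 0.04 with ET-3, and the 95% interval with ET-2 was -0.04 to 0.54.

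Txnrd1, the cytosolic thioredoxin reductase, returns oxidised thioredoxin to its active form. Its brighter probe set had 3027, 2682 and 3824 with ET-1, 3017, 2194 and 3634 with ET-2 and 2882, 2569.5 and 3944 with ET-3. Untreated cultures had 2159, 2252 and 4009. The endothelin arrays were thus higher in replicate 1, by 1.34- to 1.40-fold, and lower in replicate 3. The log2 change was 0.22 ± 0.10 with ET-1, 0.10 with ET-2 and 0.19 with ET-3 (adjusted p = 0.300, 0.658 and 0.324). The second Txnrd1 probe set was higher in all 9 pairs, most in replicate 1, by up to 1.69-fold, and least in replicate 3 with ET-1 and ET-2, by 0.0023 and 0.00059 on the log2 scale, and gave log2 changes of 0.31, 0.19 and 0.27 (adjusted p = 0.242, 0.462 and 0.258).

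Srxn1, sulfiredoxin, repairs overoxidised peroxiredoxins, and its 2 tested probe sets showed no call in any comparison. The brightest read 2222, 2167 and 3782 with ET-1, 2010.3, 2134 and 3830.1 with ET-2 and 1952, 2234 and 3926 with ET-3, against 1884, 2559 and 4094 in untreated cultures. Replicate 1 was higher with endothelin and replicates 2 and 3 were lower, and the log2 changes were -0.04, -0.09 and -0.07, with 95% intervals within -0.25 to 0.13. The middle probe set differed far more between replicate numbers than between treatments, at 147, 102 and 1282 with ET-1, 135, 104 and 1420.2 with ET-2, and 133, 120.2 and 1444 with ET-3, against 126, 136 and 1336 in untreated cultures. Its log2 changes were -0.08, -0.06 and 0.00.

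The dimmest Srxn1 probe set, which did not pass the filter, behaved differently from its partners. It read 20.0, 34.7 and 38.0 with ET-1, 6.16, 28.5 and 6.54 with ET-2 and 30.1, 18.7 and 11.8 with ET-3, against 3.61, 2.38 and 3.35 in untreated cultures. All 9 pairs were higher with endothelin, and the groups did not overlap, which held for 0.683% of the 31042 probe sets in that direction. The untreated signals lay far below the arrays' lower quartile and were not shown to exceed background, since detection calls were not used here, so no fold change is given. The endothelin signals were not shown to exceed background either, and most lay below 28.9, the lowest of the arrays' lower quartiles. When all 31042 probe sets were tested, none of the single peptides passed (adjusted p = 0.0698, 0.325 and 0.128 with ET-1, ET-2 and ET-3). The mean of the 3 passed (0.0451, where 1.62% of probe sets rose), a call that was lost in all 12 runs without a single array (0.0513 to 0.197).

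Hmox1 encodes heme oxygenase 1, which opens the heme ring and yields biliverdin, iron and carbon monoxide. It read 1408, 3549 and 7924 with ET-1, 1531, 3190.0 and 7251 with ET-2 and 1456, 4134 and 8102 with ET-3. In untreated cultures it read 1411, 2569 and 8385. All 3 peptides were above untreated in replicate 2, by 1.24- to 1.61-fold, and all 3 were below it in replicate 3. The log2 change of 0.13 ± 0.11 with ET-1 (adjusted p = 0.627), 0.07 with ET-2 (0.799) and 0.23 with ET-3 (0.313) did not pass.

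Gpx1, the cytosolic selenium-dependent glutathione peroxidase, differed by a small amount in every pair. Its signal was 6046, 6819.7 and 7791 with ET-1, 5981, 6414 and 7407 with ET-2 and 6066, 7137 and 7828 with ET-3. Untreated cultures had 4559, 5359 and 7073. All 9 pairs were higher with endothelin, by 1.05- to 1.33-fold, while untreated replicate 3 exceeded several endothelin arrays of other numbers. The log2 change was 0.30 ± 0.06 with ET-1 (adjusted p = 0.0276) and 0.32 with ET-3 (0.0157), and 0.24 with ET-2 missed the threshold (0.0800). The mean of the 3 endothelins gave 0.29 ± 0.05 (adjusted p = 0.00628), a call that was lost without replicate 1 (0.23, adjusted p = 0.109) and without replicate 2 (0.26, adjusted p = 0.0995).

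Sod2, the manganese superoxide dismutase of mitochondria, read 7841, 3946 and 5295 with ET-1, 8389, 3133 and 4969 with ET-2 and 8293, 3883 and 5237 with ET-3, against 4379.6, 3188 and 4319 in untreated cultures. Endothelin arrays were higher in 8 of 9 pairs, by 1.79- to 1.92-fold in replicate 1 and by at most 1.24-fold in the other replicates, and ET-2 in replicate 2 was the exception. No single peptide passed: the log2 change was 0.48 ± 0.13 with ET-1 (adjusted p = 0.0895), 0.37 with ET-2 (0.180) and 0.49 with ET-3 (0.0656). The mean of the 3 endothelins rose by 0.45 ± 0.11 (adjusted p = 0.0304). Without untreated replicate 1 that value was 0.22 (adjusted p = 0.125). The summed fibroblast and pericyte signal was also at its highest in replicate 1 and was higher with endothelin in the same 8 of 9 pairs. Its fold over the 9 pairs was 0.953 to 1.28, and with ET-2 only 3 of its 8 tested genes had a log2 change above 0. In untreated cultures the summed signal was 46934, 15492 and 12560 in replicates 1 to 3, where Sod2 was 4379.6, 3188 and 4319. The part of the summed signal in the Sod2 values was not tested.

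Sod1, the copper and zinc superoxide dismutase of the cytosol, and Cat, the peroxisomal catalase, showed no call with any endothelin. Sod1 read 8267, 10234 and 12724 with ET-1, 8544, 9647 and 13052 with ET-2 and 8496, 9592 and 13422 with ET-3, against 8025, 10791 and 12031 in untreated cultures. Its log2 change was 0.02 with each peptide, and the 95% interval with ET-1 was -0.11 to 0.14. Cat read 2549, 2525 and 3681 with ET-1, 2584, 2746 and 3659 with ET-2 and 2496, 2740.3 and 3614 with ET-3, against 2789, 2565 and 3724 in untreated cultures. Endothelin arrays were higher in 2 of 9 pairs for Cat, and its log2 changes were -0.06, -0.01 and -0.04, the interval with ET-1 being -0.18 to 0.07.

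**Figure D2:**
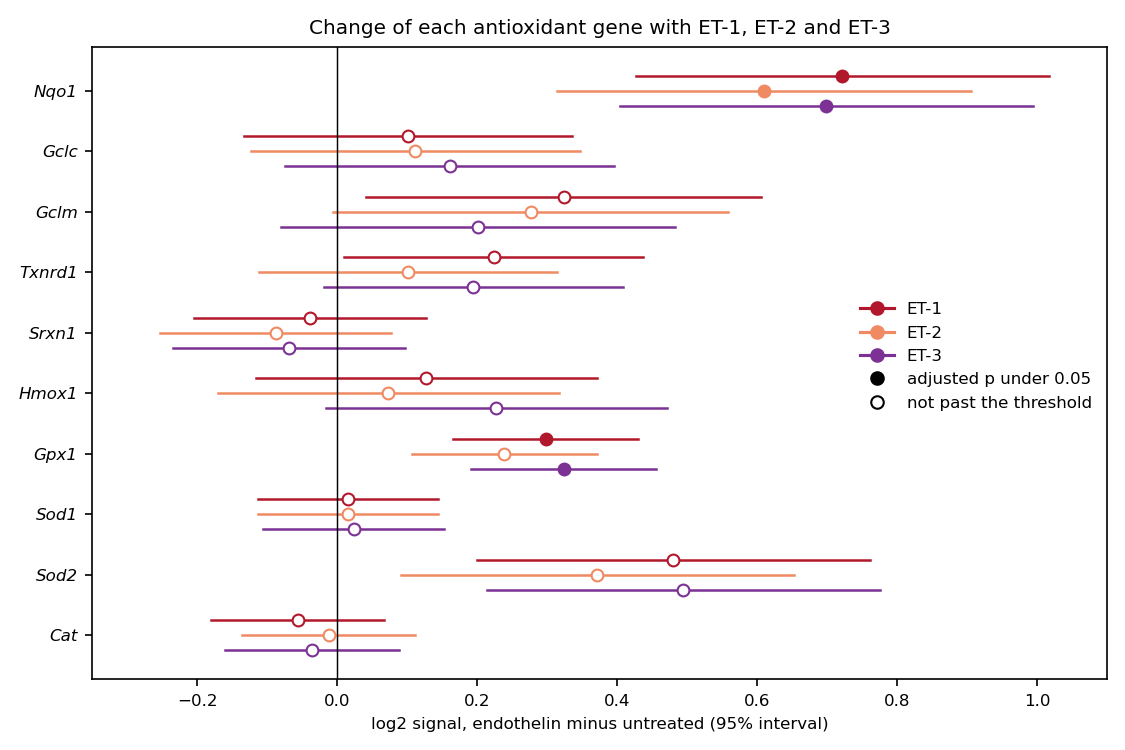
Log2 signal of each endothelin minus untreated (x axis) for the 10 genes (y axis), as points with 95% intervals from limma with the replicate block; filled points have an adjusted p under 0.05. The filled points are the 3 of Nqo1, at 0.72, 0.61 and 0.70, and the Gpx1 points of ET-1 and ET-3, while Sod1 and Cat lie near 0.

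**Figure D3:**
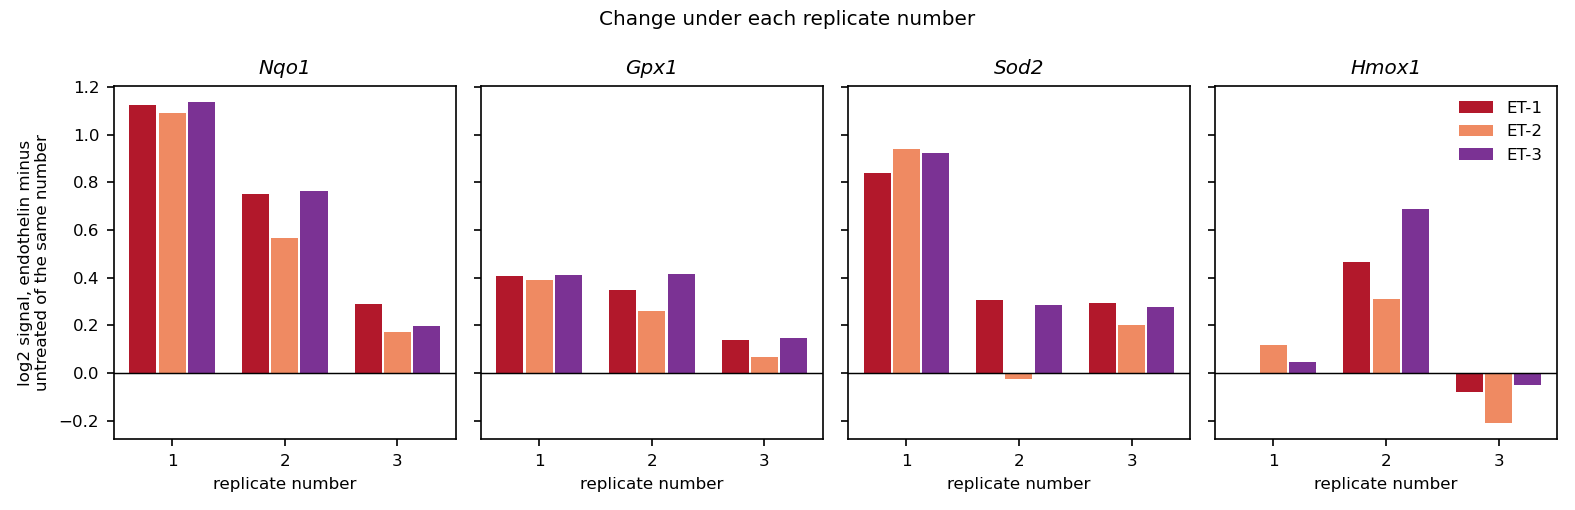
Bars of log2 signal, endothelin minus the untreated array of the same replicate number (y axis), for Nqo1, Gpx1, Sod2 and Hmox1 under replicate numbers 1 to 3 (x axis). Nqo1 and Sod2 differ most in replicate 1 and Hmox1 in replicate 2, where its bars are 0.47, 0.31 and 0.69.

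The 3 endothelins are peptides of one family given at the same dose and time, so each pair of them was compared for the 13 tested probe sets, which made 39 tests. None passed (limma, adjusted over 15521 probe sets), none had an unadjusted p under 0.05, and the lowest adjusted p was 0.999. The log2 differences ran from -0.21 to 0.16. For Nqo1, ET-2 minus ET-1 was -0.11 (95% interval -0.41 to 0.18), ET-3 minus ET-1 was -0.02 (-0.32 to 0.27) and ET-3 minus ET-2 was 0.09 (-0.21 to 0.38). For Gpx1, which passed with ET-3 and not with ET-2, ET-3 minus ET-2 was 0.08 (-0.05 to 0.22). Among all tested probe sets none passed either. An unadjusted p under 0.05 (limma) was held by 574, 347 and 583 for ET-2 against ET-1, ET-3 against ET-1 and ET-3 against ET-2. Each count is below a share of 0.05 of the 15521. These intervals do not show that the peptides act alike.

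The replicate number separated these genes more than the peptides did, a comparison added after the values were seen. The block passed its F test for all 13 tested probe sets, as it did for 72.9% of all tested probe sets (limma). Replicate 3 was higher than the mean of replicates 1 and 2 for 12 of 13 probe sets, against 29.2% of all, and for 9 of 10 genes. On the log2 scale the difference was 3.46 for the middle Srxn1 probe set. The fold was 3.61 for Hmox1, 3.44 for the second Txnrd1 probe set and 2.72 for Nqo1. It was 2.14 for the dimmer Gclc probe set, 1.83 for the brightest Srxn1 probe set and between 1.25 and 1.56 for Gpx1, Sod1, Cat, Gclm and the brighter probe sets of Gclc and Txnrd1. Sod2 was the exception, at 0.996 (adjusted p = 0.964). Of 69 other tested antioxidant genes, 33 were higher and 19 lower in replicate 3, where 29.2% and 29.9% of all tested probe sets were, among them glutathione reductase, Gsr, at 3.11-fold, and Nfe2l2 at 1.26-fold. Of the 11 RGC markers, 10 were also higher in replicate 3, and the fold over the 11 ran from 0.953 for Rbpms, which did not pass, to 2.18 for Isl1. The part of cell composition in these differences was not tested.

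Other genes of the pathway were read from 8 lists of 92 genes, of which 85 were on the array and 69 were tested. With ET-1, 3 rose (Akr1b8, Gpx8 and Mgst2), with ET-2 1 rose (Akr1b8), and with ET-3 4 rose (Akr1b8, Gpx8, Mgst2 and Gstp1), and none fell, where 1.51%, 1.28% and 2.13% of all tested probe sets rose with ET-1, ET-2 and ET-3. The single call with ET-2 is thus near the share over all probe sets. The median log2 change over the 69 was 0.02, 0.01 and 0.01. With the mean of the 3 endothelins, 5 rose and 2 fell, against 3.54% and 1.35% of all tested probe sets. The additions were Ncf4, a cytosolic subunit of the phagocyte NADPH oxidase (0.48, adjusted p = 0.0429 by limma), and on the lower side Gsta4 and Slc40a1. Ncf4 lay near the filter of about 147.5, at a geometric mean signal of 159, and of 106 in replicate 1. Gsta4, a glutathione transferase for lipid aldehydes, stood at -0.48 (adjusted p = 0.0394 by limma). Slc40a1, the iron exporter ferroportin, stood at -0.39 (adjusted p = 0.0429 by limma), and its second probe set, at -0.34, did not pass.

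Akr1b8, an aldo-keto reductase that reduces aldehydes with NADPH, read 3226, 1756 and 4108 with ET-1, 3100.1, 1207 and 4403 with ET-2 and 3052, 1703 and 4587 with ET-3, against 1148, 689 and 3503 in untreated cultures. All endothelin arrays were above the untreated array of their number, and the gap was narrowest in replicate 3. The log2 change was 1.02 ± 0.19 with ET-1 (adjusted p = 0.0180), 0.86 with ET-2 (0.0461) and 1.04 with ET-3 (0.0143). These calls were lost in 4, 5 and 3 of 6 runs without a single array, and the ET-2 value was 0.57 without replicate 1 (adjusted p = 0.326).

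Gpx8, a peroxidase of the endoplasmic reticulum, read 4632, 1696 and 1751 with ET-1, 4691, 1608 and 1571 with ET-2 and 4657, 1674 and 1659 with ET-3, against 2485, 1204 and 1483 in untreated cultures. It rose by 0.54 ± 0.12 with ET-1 (adjusted p = 0.0368) and 0.51 with ET-3 (0.0397), and stood at 0.47 with ET-2 (0.0735). Both calls were lost in 5 of 6 runs without a single array, and without untreated replicate 1 the values were 0.35 and 0.32 (adjusted p = 0.0585 and 0.0702). Mgst2, a microsomal glutathione transferase, read 2028, 387 and 335 with ET-1, 2012, 275 and 291 with ET-2 and 2088, 301 and 357 with ET-3, against 789.7, 223 and 243 in untreated cultures. It rose by 0.87 ± 0.18 with ET-1 (adjusted p = 0.0302) and 0.80 with ET-3 (0.0385), and stood at 0.64 with ET-2 (0.115). Both calls were lost in 4 of 6 such runs and without each replicate number, and without untreated replicate 1 the values were 0.57 and 0.49 (adjusted p = 0.0531 and 0.0782). Gpx8 and Mgst2 were both highest in replicate 1, as the summed fibroblast and pericyte signal was, whose part in their values was not tested. Gstp1, a cytosolic glutathione transferase, read 11209, 9114 and 19189 with ET-3 against 7674, 8151 and 14707 in untreated cultures and rose by 0.36 ± 0.07 (adjusted p = 0.0221); with ET-1 and ET-2 it stood at 0.31 each (0.0560 and 0.0608). The ET-3 call was lost in 4 of 6 runs without a single array.

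Of 8 tested NRF2 regulators none passed with any endothelin, and at the shares over all probe sets given above a list of that length would hold few calls or none. Nfe2l2 itself changed by 0.15 with ET-1, 0.11 with ET-2 and 0.15 with ET-3 (adjusted p = 0.297, 0.434 and 0.243), and Keap1 by -0.11, -0.03 and -0.08 (0.585, 0.899 and 0.704). Slc7a11, the cystine importer that feeds glutathione synthesis, stood at -0.07, -0.15 and 0.02, and Gsr at -0.09, -0.09 and -0.17. The thioredoxin gene Txn1 stood at 0.06, 0.11 and 0.09. None of the 5 tested genes of NADPH supply and none of the 15 tested thioredoxins and peroxiredoxins passed, lists likewise too short to read against those shares.

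**Figure D4:**
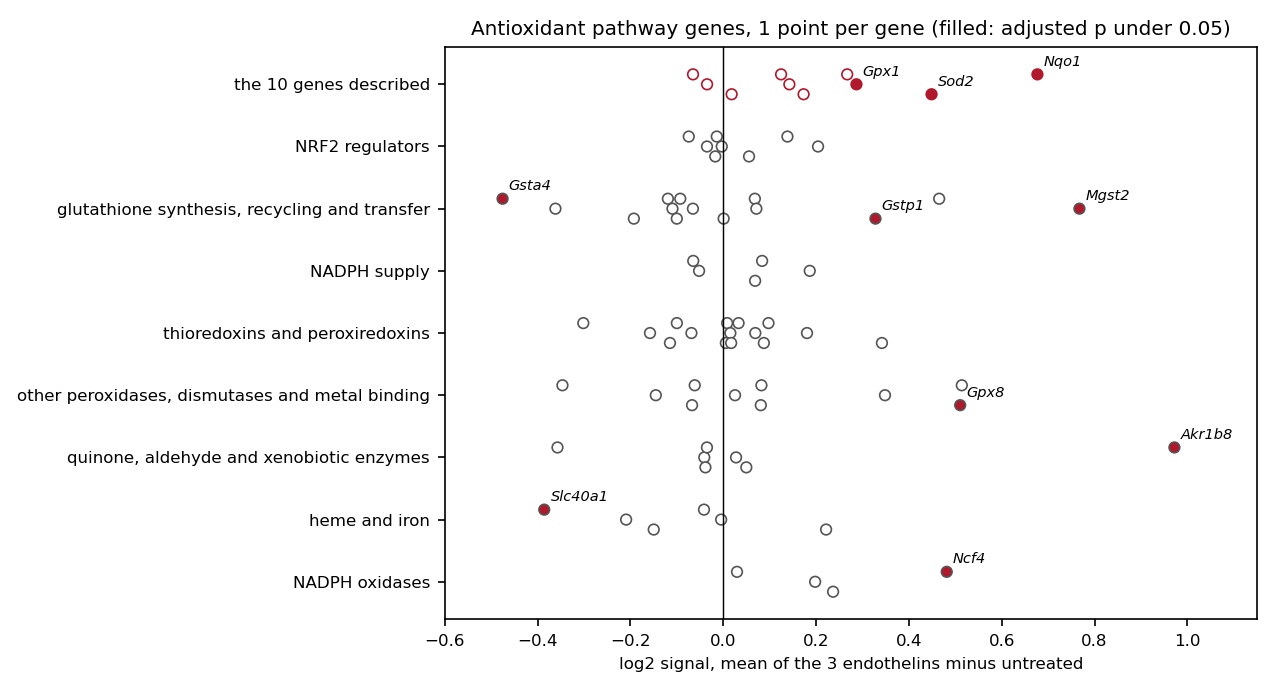
Log2 signal of the mean of the 3 endothelins minus untreated (x axis) for the 10 genes and for 8 lists of other antioxidant pathway genes (y axis), 1 point per gene; filled points have an adjusted p under 0.05 by limma with the replicate block. Nqo1 (0.68), Sod2 (0.45) and Gpx1 (0.29) are filled in the top row, Akr1b8 lies farthest to the right at 0.97, and Gsta4 and Slc40a1 are the filled points below 0.

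Genes of like pattern were found by Pearson correlation over the 12 arrays after the mean of each replicate number was subtracted, among 9424 genes. Nqo1 was nearest to Gpx8 (0.991), Rasl11b (0.990), Ccn1 (0.989) and Sdc4 (0.989). These 12 points share 4 groups, so genes that follow treatment score high with one another. Hmox1 was nearest to the matrix gene Postn (0.958), the platelet factor Pf4 (0.939), Rps27l (0.916) and Serp1 (0.914). Srxn1 was nearest to Mpg (0.943), Lrp1 (0.940), Msi2 (0.895) and Bpnt2 (0.890). For Gpx1, read in the same way after its values were seen, the nearest were Sulf1 (0.986), Rasl11b (0.984), Ptgs2 (0.980) and Akr1b8 (0.979).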

How the data were processed

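Gene expression was measured on 12 arrays, 3 in each of 4 groups. The deposited intensity of each probe set is a linear MAS5 signal, per the submitters' processing notes, which give neither a version nor settings. The authors' intensities had trimmed means of 496.7 to 498.3 on all arrays, which points to scaling to one target. Of 31042 probe sets, 20826 had 1 gene symbol in the platform annotation, 436 had several and 9780 had none; matching Entrez IDs to RefSeq changed 0 symbols. A gene is represented by its probe set with the highest mean log2 signal.

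Signals were taken as log2 without a pseudocount. The 15521 probe sets at or above the median mean log2 signal (about 147.5) were tested with limma 3.58.1 in R 4.3.3 (lmFit, contrasts.fit, eBayes with trend) over all 12 arrays, with the replicate number as a block. Two-sided p-values were adjusted over those probe sets (Benjamini-Hochberg), with a threshold of 0.05. Deviations from group means had r of 0.684 to 0.912 in the 18 pairs of same-numbered arrays and -0.706 to -0.0555 in the other 36. Such deviations cancel within a group, so the negative r is no separate evidence. The replicate numbers are those of the labels, which do not say what they stand for. The median residual SD was 0.127 with the block and 0.25 without. No 2 arrays were identical. In simulated data for ET-1 against untreated over 15521 probe sets, the fit recovered 32 of 50 changes of 0.5 log2 and 45 of 50 of 1 log2, with 9 false calls. The number of arrays limits the precision.

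The text names all 10 genes, up to 6 pathway genes per endothelin with the smallest p among those past the threshold, a fixed set of regulators (of which Prdx1 is named only, and some are not reported here), and the 4 genes of most similar pattern for Nqo1, Hmox1 and Srxn1. Pathway genes that passed with the mean of the 3 endothelins alone, and marker genes, were named after their values were seen. The genes and lists were chosen with earlier results of these data known. Listed genes without a match included Gsta2, Ugt1a6, Fth1 and Ftl1. The alternatives were no block, no filter, a pseudocount of 16, median centring, quantile normalization, the 2 groups alone, and leaving out each array or replicate number. The replicate comparison, the test of the endothelin difference by replicate number and the runs on the dimmest Srxn1 probe set were added after the values were seen. Promoters came from RefSeq (GRCr8); Hmox1 had no entry there.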

Additional observations from a re-analysis of the deposited data

How the results depend on the processing

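The replicate numbers act as a block in the fits given above; without it the number of the 10 genes past the threshold was 0 with ET-1, ET-2, ET-3 and their mean, and so was the number of all probe sets (limma). With the filter removed, 1 of the 10 genes passed with ET-1 and 0 with ET-2, and all probe sets past the threshold numbered 135 with ET-2, against 249 with the filter, and 273 with ET-3, against 410.0. With each array centred on its median, 0 of the 10 genes passed with ET-1, 0 with ET-2 and 1 with ET-3. Quantile normalization left 0 with ET-2. With only the 2 groups compared, 0 of the 10 genes passed with each peptide, and 78, 56 and 56 probe sets did. Centring moved the median of all probe sets with ET-2 to -0.12, from -0.02, and turned 199 higher and 50 lower calls into 193 higher and 1025 lower (1218 in all). With ET-3 it turned 331 higher and 79 lower calls into 228 and 218, and with the mean of the 3 it turned 549 and 209 into 426 and 1066 (1492 in all). The cause of these moves was not tested.

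When single arrays or replicate numbers were left out, the number of the 10 genes past the threshold ran from 0 to 2 with ET-1 and with ET-2, from 0 to 3 with ET-3 and from 0 to 4 with the mean. The number of all probe sets ran from 23 to 575, 27 to 404, 43 to 685 and 224 to 1014, against 268, 249, 410.0 and 758 with all arrays. The ET-1 count of all probe sets was 23 without replicate 2 and 575 without untreated replicate 3, and the ET-2 count was 27 without ET-2 replicate 1. Between peptides the count for ET-2 against ET-1 ran from 0 to 1 and the other 2 comparisons had 0 throughout. For Nqo1, the call with ET-1 was lost in 4 of 6 runs without a single array (adjusted p from 0.0523 to 0.0999), with ET-2 in 5 of 6 (0.0829 to 0.239) and with ET-3 in 3 of 6 (0.0539 to 0.110). For Gpx1 it was lost in 5 of 6 with ET-1 (0.0818 to 0.155) and 3 of 6 with ET-3 (0.0549 to 0.0965), and for Sod2 with the mean in 6 of 12 (0.0515 to 0.125). Over all 2111 values of single genes under these alternatives, 157 lost a call, 10 gained one and 0 called values changed direction. Only values called in the main fit could lose a call, and most of the 2111 were not, so 157 is not a share of 2111. A further 192 values differed in sign without a call.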
